A study of Mus musculus with 8 samples.

Results

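Messenger RNA of 10 genes of the BCL2 family was followed in mouse B cells that had been helped by T cells with or without a full set of Bcl6 alleles. The genes were chosen by symbol, and all 10 (Bcl2, Bcl2l1, Mcl1, Bcl2a1b, Bcl2a1d, Bcl2l11, Bid, Bbc3, Bax and Bak1) were among the 24259 genes of the count table. All 10 also passed the filter on low counts, which kept 12744 genes. BCL2 family proteins decide whether the outer membrane of the mitochondrion stays closed. BCL2, BCL-XL (from Bcl2l1), MCL1 and A1 (from the Bcl2a1 genes) keep it closed, BAX and BAK (from Bak1) open it, and the so-called BH3-only proteins BIM (from Bcl2l11), PUMA (from Bbc3) and BID block the guardians or activate the openers. In B cells, signals through CD40 and the antigen receptor are known to raise A1 and BCL-XL, MCL1 is needed for germinal center B cells to survive, and BIM removes activated and self-reactive B cells.

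The sequenced cells were NP-binding, IgD-low, B220+ pre-germinal center B cells from the draining lymph nodes of CD45.1 Sap-/- recipients on the C57BL/6 background, taken at day 3 after subcutaneous NP-OVA with LPS in alum. Host T cells without SAP cannot sustain a germinal center, so help came from transferred OT-II T cells, which see ovalbumin. In the HET group (4 libraries) these T cells carried Cd4-cre and Bcl6 fl/+, and in the WT group (4 libraries) Cd4-cre alone, so cre was present in the T cells of both groups and the Bcl6 change lay in the T cells, not in the B cells measured. Ages of the animals are not given in the sources used here. Cells from the recipients of a group were pooled before about 200 cells were sorted for each library. The 4 replicates of a group therefore measure sorting and library preparation, p-values cover that technical spread only, and an effect of the group cannot be told apart from one of its pool. The comparison asks whether survival and death genes of the B cells differ with the Bcl6 dose of the helping T cell.

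Depth ran from 6652386 to 12559189 counted reads per library, at which 3 reads correspond to 0.241 to 0.455 CPM (the reads of a gene relative to the library's total, scaled by edgeR's TMM method). The 8 B cell marker genes summed to 21480 to 22760 CPM in HET and 24670 to 27280 CPM in WT, and 7 of them were lower in HET at an unadjusted edgeR p under 0.05. The 18 T cell markers summed to 595.4 to 968.7 CPM in HET and 496.1 to 845 CPM in WT, none of the 17 tested passed that p, and Cd4 averaged 0.250 and 0.183 CPM. The 17 myeloid markers in the table summed to 72.49 to 229.4 CPM in HET and 36.68 to 460.7 CPM in WT. The 16 genes of dividing cells summed to 1117 to 1617 CPM in HET and 633.6 to 1123 CPM in WT, with 6 of them higher in HET at an unadjusted p under 0.05. The count table holds only genes with reads in some library, so a marker without reads would be absent from it. Of the 18 myeloid markers listed, 17 were in it. HET replicate 1 stood apart in its antibody-secreting cell markers, at 2426 CPM against 371.9 to 791.4 CPM in the other 7 libraries, and 1 gene, Jchain, gave 1576 of the 2426 CPM. What part these markers play in the values below was not tested.

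The Bcl2a1 genes are described first, because Bcl2a1d held the most reads per exon length and the lowest p-value of the family. They are copies on mouse chromosome 9, Bcl2a1a, Bcl2a1b and Bcl2a1d near each other and Bcl2a1c further along (chr9:114330135-114330578). Bcl2a1a, Bcl2a1b and Bcl2a1d encode A1, an NF-kB target which binds BIM and other BH3-only proteins. Bcl2a1c has a shorter coding sequence, of 387 bases against 519 in each of the others. The first 90 coding bases of Bcl2a1d, Bcl2a1b and Bcl2a1a are shown. No other stretch of that length differed at more positions between these 3 copies. Most bases were the same even there, and short reads can then be split between copies or dropped. The bases come from GENCODE M21 transcripts on GRCm38, at chr9:88731630-88731719 on the minus strand for Bcl2a1d, chr9:89199360-89199449 on the plus strand for Bcl2a1b and chr9:88957051-88957140 on the plus strand for Bcl2a1a. Each line reads 5′ to 3′ from the start codon. Capitals in Bcl2a1d mark bases at which either other copy differs, and capitals in the other copies mark bases that differ from Bcl2a1d.
Bcl2a1d: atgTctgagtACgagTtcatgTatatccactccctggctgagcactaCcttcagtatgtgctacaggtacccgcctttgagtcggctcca
Bcl2a1b: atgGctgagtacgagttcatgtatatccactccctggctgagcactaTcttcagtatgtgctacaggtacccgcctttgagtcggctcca
Bcl2a1a: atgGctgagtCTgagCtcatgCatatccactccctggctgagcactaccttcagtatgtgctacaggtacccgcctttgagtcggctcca

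In this stretch Bcl2a1b differed from Bcl2a1d at 2 bases and Bcl2a1a differed from it at 5. Over the 519 coding bases, Bcl2a1d and Bcl2a1b differed at 6, with a longest shared run of 217 bases. Bcl2a1d and Bcl2a1a differed at 7, with a longest shared run of 314. Of all windows of 100 bases in its transcripts, 54.7% in Bcl2a1d, 56.8% in Bcl2a1b and 43.5% in Bcl2a1a also occurred in the transcripts of another gene. Bcl2a1c stood further off. Compared position by position from the first coding base, without gaps, 68 of its 387 coding bases differed from Bcl2a1d. An insertion or deletion would raise that number. Bcl2a1c shared no window of 100 bases with another gene, and had 1 read in HET replicate 1 and none in the other 7 libraries. For these reasons the value of a single copy is uncertain, and the sum of the 4 copies is given beside it.

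Bcl2a1d (chr9:88723285-88731914, minus strand) held most of the reads. Its level was 71.4, 84.3, 96.5 and 86.9 CPM in HET replicates 1 to 4, and 64.3, 63.3, 46.9 and 54.7 CPM in WT replicates 1 to 4. The groups did not overlap, every HET library lying above every WT library. The HET mean was 84.8 ± 10.3 CPM and the WT mean 57.3 ± 8.15 CPM (SD, n = 4 each). The log2 fold change (HET minus WT) was 0.56 with a standard error of 0.15, which is 1.48-fold with a 95% interval of 1.17 to 1.86. Its unadjusted p in edgeR's quasi-likelihood test was 0.00268, but the Benjamini-Hochberg adjusted p over all genes tested was 0.371. DESeq2 gave an adjusted p of 0.0516. So the copy did not pass the threshold of 0.05 in either tool.

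Bcl2a1b (chr9:89199209-89207827, plus strand) gave a different picture at a lower level. It stood at 13.3, 13.7, 15.3 and 11.1 CPM in HET replicates 1 to 4, and at 15.9, 15.95, 7.95 and 8.56 CPM in WT replicates 1 to 4. WT replicates 1 and 2 were above all HET libraries and WT replicates 3 and 4 below them, so the ranges overlapped throughout. Its log2 fold change was 0.14 with a standard error of 0.33 (edgeR adjusted p = 0.958). Another limit on this copy is that 49.1% of its exon length lies under exons of Gm29094 on the same strand. Gm29094 is absent from the count table.

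Bcl2a1a did not pass the filter on low counts and was not tested. It had 7.24, 0.518, 1.95 and 0.910 CPM in HET replicates 1 to 4, from 90, 4, 13 and 6 reads. In WT replicates 1 to 4 it had 0.855, 4.78, 0.505 and 0.209 CPM, from 9, 47, 4 and 2 reads. One library of each group therefore held most of its reads, HET replicate 1 and WT replicate 2. These also had the highest myeloid marker sum of their group, 229.4 and 460.7 CPM, although HET replicate 2, at 196.6 CPM, was low in Bcl2a1a. Different genes made up these sums, Siglech leading in HET replicate 1 (102 CPM, and 0 in WT replicate 2) and Lyz2 in WT replicate 2 (399 CPM, and 13.4 in HET replicate 1). The part of other cell types in this copy was not tested.

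Summed over the copies, Bcl2a1 stood at 92.0, 98.6, 114 and 98.9 CPM in HET replicates 1 to 4, and at 81.1, 84.0, 55.4 and 63.5 CPM in WT replicates 1 to 4. The groups again did not overlap. The HET mean was 101 ± 9.19 CPM and the WT mean 71.0 ± 13.8 CPM (SD, n = 4 each), and the log2 fold change was 0.50 with a standard error of 0.15. In folds this was 1.42, with a 95% interval of 1.13 to 1.78. The unadjusted edgeR p was 0.00570 and the adjusted p 0.492, so the sum did not pass either. Leaving out each library in turn gave log2 fold changes of 0.41 to 0.60.

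The make-up of the sum varied between libraries of the same group. Bcl2a1d took 77.6%, 85.5%, 84.8% and 87.9% of Bcl2a1 reads in HET replicates 1 to 4, and 79.4%, 75.3%, 84.7% and 86.2% in WT replicates 1 to 4. Bcl2a1b took 11.2% to 14.4% in HET and 13.5% to 19.6% in WT. Bcl2a1a took 7.87% in HET replicate 1 (Wilson 95% interval 6.44% to 9.57%) and 5.68% in WT replicate 2 (4.30% to 7.48%), against at most 1.71% in the other 6 libraries. These intervals cover counting error only.

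**Figure D1:**
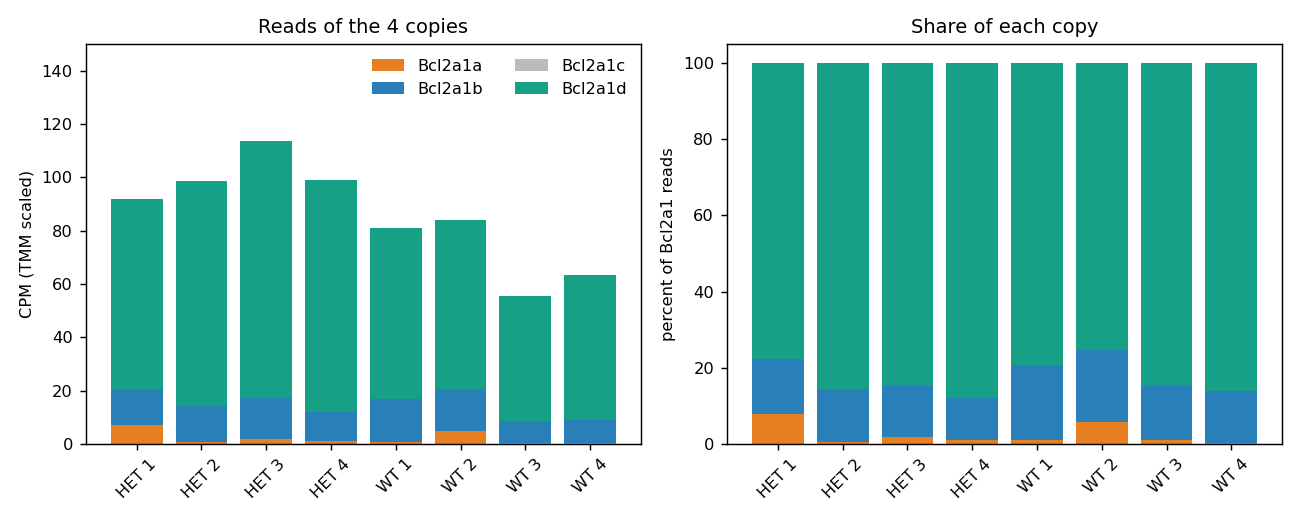
Reads of the Bcl2a1 copies in each library, as CPM stacked by copy (left) and as percent of all Bcl2a1 reads (right). The 4 HET bars on the left reach 92.0 to 114 CPM and the 4 WT bars 55.4 to 84.0 CPM, and Bcl2a1d is the largest share of every bar.

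Among the 10 genes, Bcl2l1 (chr2:152780668-152831728, minus strand), the BCL-XL gene, was the only guardian other than the A1 genes with a higher mean in HET. It stood at 11.6, 17.0, 22.0 and 21.7 CPM in HET replicates 1 to 4, and at 17.1, 4.67, 6.94 and 10.3 CPM in WT replicates 1 to 4. HET replicate 1 lay below WT replicate 1 and, by a small margin, HET replicate 2 did too, so the groups overlapped. Means were 18.1 ± 4.90 CPM (SD, n = 4) and 9.76 ± 5.42 CPM (SD, n = 4), a 1.84-fold ratio with a 95% interval of 1.02 to 3.33. The unadjusted edgeR p was 0.0443 and the adjusted p 0.667. Bcl2l1 was uneven within WT, with a coefficient of variation (SD divided by mean) of 55.5% where counting error alone would give 10.3%.

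Bcl2 (chr1:106538178-106714274, minus strand), the founding member, which mature follicular B cells carry and germinal center cells lose, had 156, 114, 128 and 99.5 CPM in HET replicates 1 to 4. In WT replicates 1 to 4 it had 141, 129, 160 and 136 CPM. HET replicates 2, 3 and 4 lay below the lowest WT library and HET replicate 1 second only to WT replicate 3, so the ranges overlapped. The fold was 0.882 with a 95% interval of 0.715 to 1.09 (edgeR adjusted p = 0.838). An antisense gene, D630008O14Rik, covers 6.09% of the Bcl2 exon length and had 14.8 to 29.7 CPM in HET and 17.3 to 25.1 CPM in WT.

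Mcl1 (chr3:95658788-95663176, plus strand), whose protein is short-lived and must be made continually, had 245, 181, 198 and 174 CPM in HET replicates 1 to 4 and 206, 205, 226 and 211 CPM in WT replicates 1 to 4. In WT, Mcl1 varied least of the 10 genes, with a coefficient of variation of 4.49%, and the WT libraries all lay inside the HET range. The fold was 0.942 with a 95% interval of 0.792 to 1.12 (edgeR adjusted p = 0.915).

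Among the BH3-only genes, Bid (chr6:120891930-120916853, minus strand), which links caspase-8 to the mitochondrion, had 104, 101, 130 and 155 CPM in HET replicates 1 to 4. In WT replicates 1 to 4 it had 97.3, 91.6, 100.1 and 79.9 CPM. The groups did not overlap, but HET replicate 2, at 100.9 CPM, and WT replicate 3 almost met. Means were 122 ± 25.2 CPM (SD, n = 4) and 92.2 ± 8.96 CPM (SD, n = 4), a 1.33-fold ratio with a 95% interval of 1.06 to 1.66. The unadjusted edgeR p was 0.0173 and the adjusted p 0.597. Without HET replicate 4 the log2 fold change was 0.28 and without WT replicate 4 it was 0.35, against 0.41 with all libraries, and neither kept an unadjusted p under 0.05. Bcl2l13, another family gene, overlaps 17.7% of the Bid exon length on the opposite strand, and since the strand setting of the counting is not given, reads of the pair there may not have been told apart.

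Bcl2l11 (chr2:128126038-128162547, plus strand), which encodes BIM, varied widely between libraries of both groups. It stood at 73.8, 33.4, 21.4 and 37.2 CPM in HET replicates 1 to 4, and at 34.8, 27.8, 12.5 and 40.5 CPM in WT replicates 1 to 4. The highest library was 3.44 times the lowest in HET and 3.24 times in WT, and the groups overlapped. Its coefficients of variation were 54.5% in HET and 41.9% in WT, where counting error alone would give 5.06% and 5.96%. The fold was 1.44 with a 95% interval of 0.799 to 2.59 (edgeR adjusted p = 0.826). With each library left out in turn, its log2 fold change was 0.09 (without HET replicate 1) to 0.74.

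Bbc3 (chr7:16308393-16318205, plus strand), a p53 target that encodes PUMA, was low in every library. It had 4.90, 1.68, 7.64 and 5.61 CPM in HET replicates 1 to 4 and 2.19, 3.15, 3.66 and 4.91 CPM in WT replicates 1 to 4, from 13 to 61 reads a library. The groups overlapped, and the fold of 1.42 had a 95% interval of 0.619 to 3.28 (edgeR adjusted p = 0.892). Its coefficients of variation were 49.9% in HET and 32.6% in WT, where counting error alone would give 15.7% and 17.5%.

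The openers of the mitochondrial membrane differed in level. Bax (chr7:45461697-45466898, minus strand) had 91.4, 99.2, 120 and 86.6 CPM in HET replicates 1 to 4 and 106, 103, 80.3 and 109 CPM in WT replicates 1 to 4. The group means were 99.4 ± 14.9 and 99.8 ± 13.2 CPM (SD, n = 4 each), and the fold was 0.995 with a 95% interval of 0.803 to 1.23 (edgeR adjusted p = 0.995). The sign of its log2 fold change turned positive in some alternatives, as given in the closing part. Exons of Gm45808, a gene absent from the count table, cover 12.2% of the Bax exon length on the same strand. Of the Bax windows of 100 bases, 9.49% occur in that gene's transcripts.

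Bak1 (chr17:27019810-27029009, minus strand) had 6.51, 2.202, 3.30 and 3.64 CPM in HET replicates 1 to 4 and 1.71, 1.32, 2.78 and 4.80 CPM in WT replicates 1 to 4, from 13 to 81 reads a library. Its coefficients of variation were 47% and 58.8%, above the 16.7% and 20.1% of counting error. The groups overlapped, and the fold of 1.48 had a 95% interval of 0.590 to 3.72 (edgeR adjusted p = 0.892). Ggnbp1 on the opposite strand overlaps 25.5% of its exon length, at 0.30 to 2.85 CPM in HET and 0.38 to 1.89 CPM in WT.

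**Figure D2:**
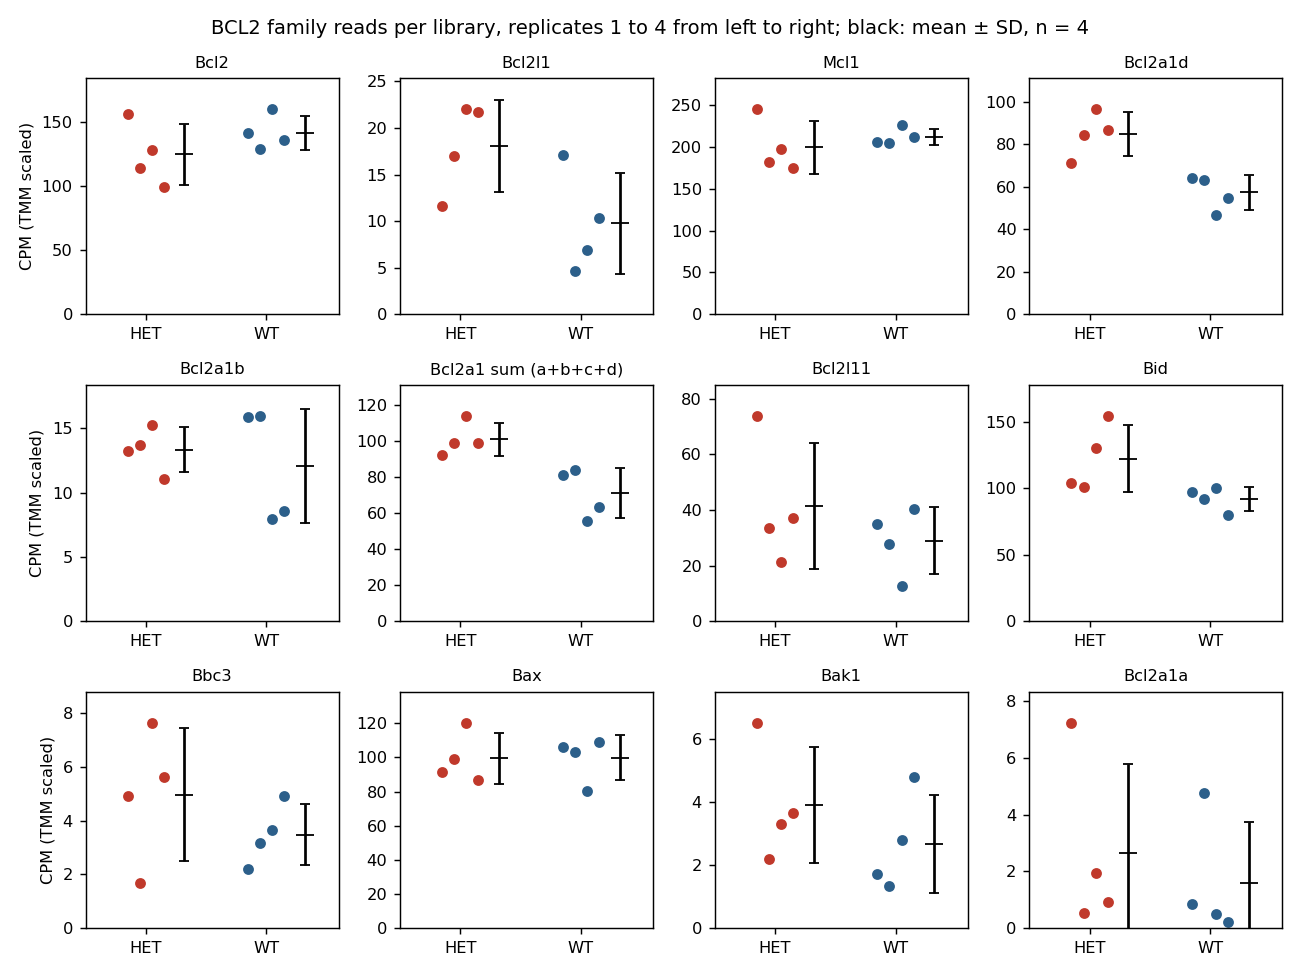
TMM-scaled CPM of the 10 genes, the Bcl2a1 sum and Bcl2a1a in each library, with every axis starting at 0; points are replicates 1 to 4 from left to right and black bars the mean ± SD (n = 4). Among the 10 genes the HET points lie wholly above the WT points for Bcl2a1d and Bid, and the groups overlap for the other 8; in the Bcl2a1a panel the lower ends of the bars are cut at 0.

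Across the family, 0 of the 10 genes passed an adjusted p under 0.05 in edgeR, against 3 of 12744 genes (0.0235%). DESeq2 also called 0 of the 10, against 95 of 13834 genes with an adjusted p (0.687%). At an unadjusted edgeR p under 0.05, 3 of the 10 were higher in HET (Bcl2l1, Bcl2a1d and Bid) and 0 were lower, where 7.22% of all tested genes passed this p, 3.34% higher and 3.88% lower. Without HET replicate 1 these were 3 higher and 1 lower, Bcl2 then having a log2 fold change of -0.31 (edgeR adjusted p = 0.576). The groups did not overlap for Bcl2a1d and Bid, both higher in HET, against 4.61% of tested genes in either direction, 1.99% higher and 2.62% lower. Log2 fold changes were above 0 in 7 of the 10, against 49.9% of tested genes, and their median was 0.46 against -0.0014 over all tested genes. The 10 genes were chosen with earlier results of these data known, so these contrasts describe the family and do not test it. The 3 genes with an unadjusted p under 0.05 lie on both sides of the family, Bcl2a1d and Bcl2l1 being guardians and Bid a death gene.

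**Figure D3:**
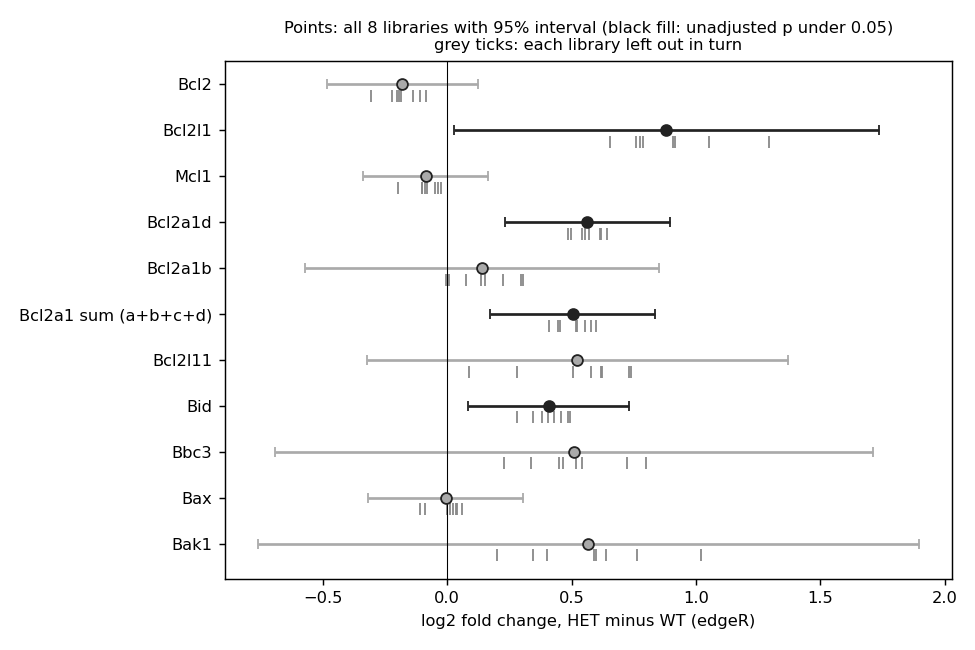
Log2 fold change (HET minus WT, edgeR) of each gene and of the Bcl2a1 sum, with its 95% interval; black marks an unadjusted p under 0.05 and grey ticks the value with each library left out in turn. The intervals of Bcl2a1d, the Bcl2a1 sum, Bid and Bcl2l1 lie above 0, and that of Bak1 is the widest, from 0.590-fold to 3.72-fold.

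To set genes side by side, CPM was divided by the exon length of each gene (all exons merged, GENCODE M21), which gives CPM per kilobase of exon. On this scale Bcl2a1d had the highest mean over the 8 libraries, 82.3, followed by Bax at 63.2 and Mcl1 at 60.2. Bid followed at 30.2, Bcl2a1b at 15.6 and Bcl2 at 14.5. At the low end were Bcl2l11 at 4.38, Bcl2l1 at 3.03, Bbc3 at 1.99 and Bak1 at 1.36. Neighbours in this order had separate ranges only at 3 steps, between Mcl1 and Bid, between Bid and Bcl2a1b, and between Bcl2 and Bcl2l11, where the upper gene led in 8 of 8 libraries. Bcl2a1d led Bax in 7 of 8 libraries and Bax led Mcl1 in 6 of 8, with ranges that overlapped, so the order at the top is not settled. With the longest transcript as the length, Bax came first and Bcl2a1d second.

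**Figure D4:**
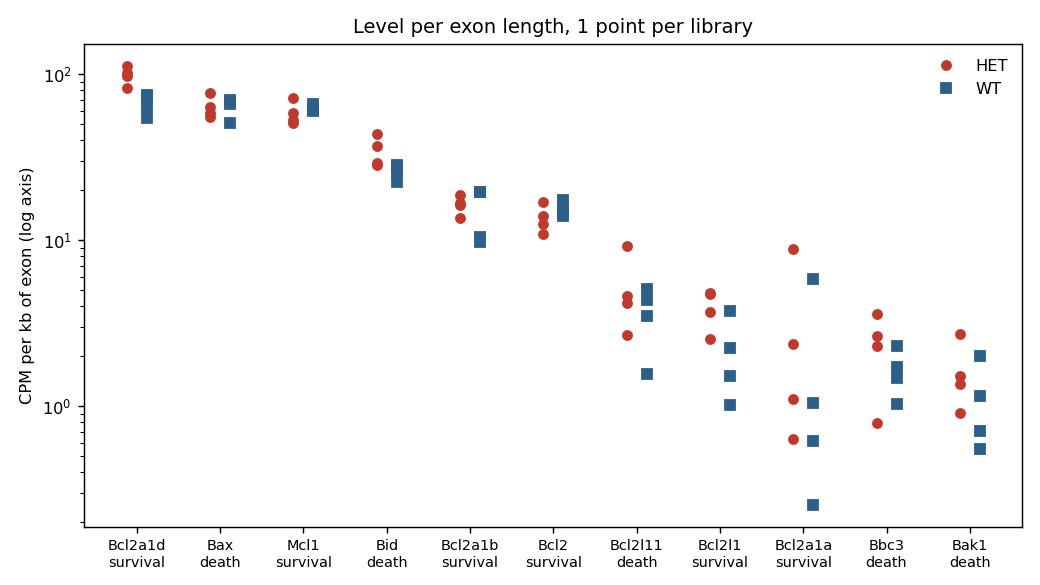
CPM per kilobase of exon in each library on a log axis, genes ordered by their mean, with HET as circles and WT as squares and the role of each gene under its name; Bcl2a1a, which is not among the 10 genes, is drawn for comparison. Levels span from 82.3 (Bcl2a1d) to 1.36 (Bak1) in the mean over 8 libraries.

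On the same scale, guardian genes (Bcl2, Bcl2l1, Mcl1, Bcl2a1b and Bcl2a1d) made up 60.2% to 65.4% of the family's summed level in every library. Their share was 65.2%, 65.4%, 63.2% and 62.8% in HET replicates 1 to 4, and 63.2%, 63.4%, 64.1% and 60.2% in WT replicates 1 to 4. The means were 64.1% ± 1.36 and 62.7% ± 1.75 (SD, n = 4 each) and the groups overlapped. From the authors' TPM the share was 65.9% ± 3.01 in HET and 67.8% ± 2.91 in WT (SD, n = 4 each), so the order of the means turned with the length used, and the groups overlapped there too. As Bcl2a1d, Bax and Mcl1 were the largest terms, this share says little of the low genes.

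Lists of related genes give the surroundings of the family, and 0 genes of any list passed an adjusted p under 0.05 in edgeR or DESeq2. Over all tested genes, 7.22% had an unadjusted edgeR p under 0.05, 3.34% higher and 3.88% lower in HET. The groups did not overlap for 4.61% of them, 1.99% higher and 2.62% lower. Of 16 other BCL2 family genes, 9 could be tested, of which 2 were higher and 1 lower at an unadjusted edgeR p under 0.05, with a median log2 fold change of 0.08. Bcl2l2, the guardian BCL-W, had 6.59, 1.55, 1.498 and 1.67 CPM in HET replicates 1 to 4 and 0.950, 0.711, 0.505 and 0 CPM in WT replicates 1 to 4. These came from 82, 12, 10 and 11 reads in HET and 10, 7, 4 and 0 reads in WT. Bcl2l2 thus passed the filter on low counts through its HET libraries alone. Its lack of overlap and its place among the genes higher in HET follow in part from that filter and carry no weight. HET replicate 1 stood far above the other HET libraries, and the adjusted edgeR p was 0.621. Bcl2l13 had 31.1, 35.5, 42.8 and 34.1 CPM in HET and 13.5, 26.4, 31.0 and 22.0 CPM in WT, by replicate, also without overlap, and it shares exon positions with Bid as given above. Bnip3l, a mitophagy receptor, was at 80.2 ± 6.44 CPM in HET and 97.6 ± 9.55 CPM in WT (SD, n = 4 each).

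Downstream of the mitochondrion, all 22 genes of the caspase cascade and its inhibitors were tested. At an unadjusted edgeR p under 0.05, 2 were higher and 2 lower, against 3.34% and 3.88% of all tested genes. The median log2 fold change of the list was 0.03. Birc5 (survivin), which also serves cell division and stands in the list of dividing cells too, was at 62.7 ± 11.1 CPM in HET and 37.5 ± 16.4 CPM in WT (SD, n = 4 each). Cycs, the cytochrome c gene, was at 147 ± 23.3 and 111 ± 24.5 CPM. Casp2, an initiator caspase, was at 51.7 ± 5.40 CPM in HET and 67.7 ± 5.50 CPM in WT, and Birc2 (cIAP1), a ubiquitin ligase of TNF receptor and NF-kB signalling, at 39.4 ± 2.37 and 52.8 ± 9.14 CPM. For Casp2 and Birc2 the highest HET library was below the lowest WT library, as for 2.62% of all tested genes.

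Genes that control MCL1 and BIM turnover or the expression of BH3-only genes gave 0 of 13 tested with an unadjusted edgeR p under 0.05 in either direction, with -0.04 as their median log2 fold change. Among the most abundant of them were Dynll1, a dynein light chain that holds BIM, at 313 CPM in HET and 279 CPM in WT, and Foxo1, a transcription factor of a family known to drive Bcl2l11, at 127 and 141 CPM. The p53 list likewise gave 0 of 10 tested in either direction, with a median of 0.09. With 7.22% of all tested genes at that p, counts of 0 in lists this short lie near the share over all genes. Trp53 itself was at 301 CPM in HET and 268 CPM in WT, and Mdm2, its ubiquitin ligase and target, at 64.8 and 62.8 CPM. Sesn1, another p53 target, was at 209 and 225 CPM.

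**Figure D5:**
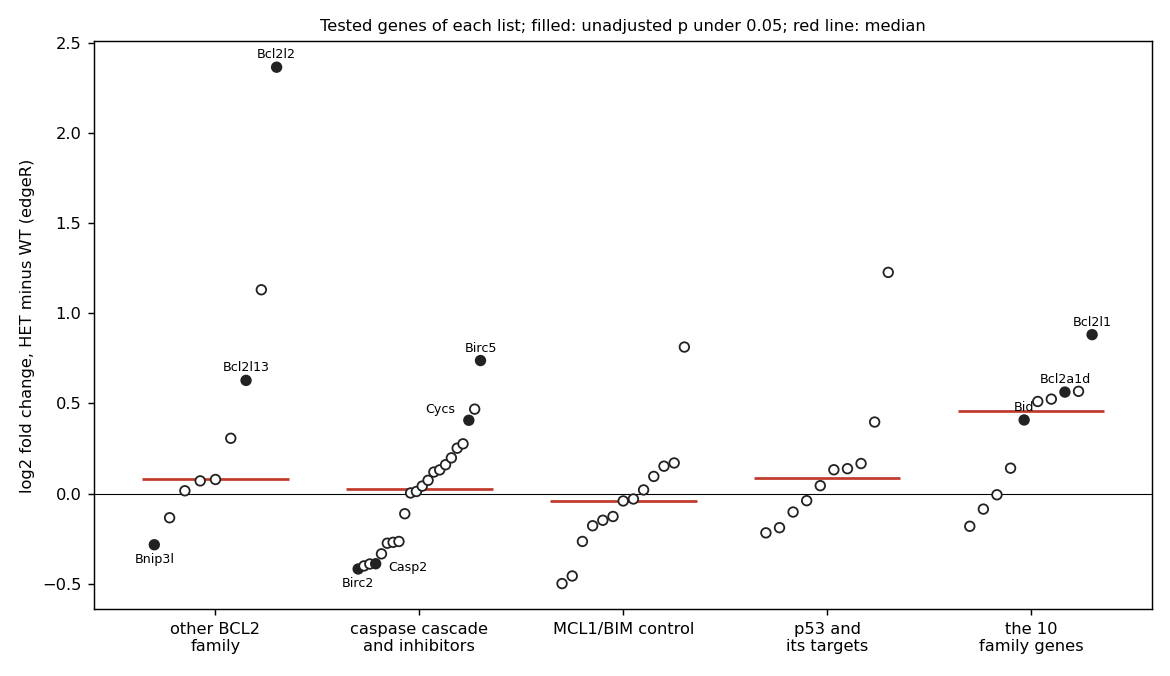
Log2 fold change (HET minus WT, edgeR) of every tested gene in the 4 lists and among the 10 family genes, with filled points for an unadjusted p under 0.05 and a red line at each median. The medians of the lists lie between -0.04 and 0.09, and that of the 10 family genes at 0.46.

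The genes whose profile over the 8 libraries was most like that of the Bcl2a1 sum were found among 7102 genes whose mean log2 CPM was 4 or more. Likeness was the root mean square difference of log2 CPM after centring each gene. The nearest 5 were Ccdc6 (0.114), Nolc1 (0.1195), Snrpd1 (0.12), Commd1 (0.123) and 2310011J03Rik (0.125), where the median over candidates was 0.416. Nolc1, a nucleolar protein, was at 149, 185, 175 and 191 CPM in HET replicates 1 to 4 and at 149, 143, 106 and 103 CPM in WT replicates 1 to 4. Snrpd1, a core protein of the spliceosome, had 110, 126, 147 and 120 CPM in HET and 110, 129, 81.5 and 83.9 CPM in WT, by replicate. Both shared with the Bcl2a1 sum the low values of WT replicates 3 and 4.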

How the data were processed

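RNA was amplified with SMART-Seq2. The authors aligned reads to GRCm38 with HISAT2 2.2.1 and counted them per gene with HTSeq-count, and the deposited table holds whole-number read counts. The annotation, strand setting and handling of multiply aligned reads are not given in the sources used here. The deposited TPM table, which the authors made from the same counts, was used only as an alternative and to compare lengths.

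Counts were fitted in R 4.3.3 with edgeR 4.0.16 (filterByExpr, TMM, robust quasi-likelihood F-test, group as the only factor), and p-values were Benjamini-Hochberg adjusted over the 12744 of 24259 genes tested (99.7% of counts). Standard errors were derived from the log2 fold change and the F statistic, and 95% intervals use the moderated degrees of freedom. For the Bcl2a1 sum, the 4 copies were replaced by 1 summed feature. Alternatives were DESeq2 1.42.0 (the authors' tool), limma 3.58.1 (voom, and trend on log2 TPM with a pseudocount of 1 or 0.1), size factors, other filters, immunoglobulin genes left out, a replicate block, an adjusted p under 0.1 and each library left out. Exon lengths, positions and sequences came from GENCODE M21.

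The share of guardian genes was planned on TPM; the scale per exon length was added after seeing the data. Named genes were all 10 genes, the Bcl2a1 sum, up to 6 genes per list with an unadjusted p under 0.05 (the 3 most abundant where fewer than 3 passed) and the 5 profiles most like the Bcl2a1 sum; 1 gene that this rule names is not reported here. The 10 genes and the lists were chosen with earlier results of these data known. No pair of libraries within a group agreed within sampling noise. SMART-Seq2 carries no molecular identifiers, so intervals from counts cover counting error only.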

Additional observations from a re-analysis of the deposited data

How the results depend on the processing

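None of the 10 genes was called in any of the 18 alternatives, and the Bcl2a1 sum and Bcl2a1d kept their direction and an unadjusted p under 0.05 in all 17 alternative fits, with log2 fold changes of 0.41 to 0.60 and 0.49 to 0.64 and adjusted p of 0.142 to 0.75 and 0.0516 to 0.675. Genes called over the whole table numbered 3 in edgeR, 95 with DESeq2, 38 without the filter, 7 with a mean of at least 50 counts, 8 at an adjusted p under 0.1, 1 in limma-trend on log2(TPM + 0.1) and 0 in limma-trend on log2(TPM + 1), where 982 genes had an unadjusted p under 0.05. They ranged from 1 (without any 1 HET replicate or WT replicate 3) to 6 (without WT replicate 1). Of the 10 genes, 3 had an unadjusted p under 0.05 in edgeR, 1 in limma-trend on log2(TPM + 0.1), and 1 to 4 with a library left out, the 1 being when replicate 4 of either group was left out. The 4 came without HET replicate 1, where Bcl2 joined as lower in HET. Bcl2l1 kept an unadjusted p under 0.05 in 2 of 8 such fits and Bid in 6 of 8. The direction of Bax turned in voom (0.0016) and ranged from -0.11 to 0.0574 (without HET replicate 4) with a library left out, and that of Bcl2a1b from -0.0049 (without WT replicate 3) to 0.31. The cause of these shifts was not tested.

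Both groups carry replicate numbers 1 to 4. Same-numbered libraries did not deviate together (correlations of -0.051, 0.013, 0.003 and -0.026), and 1 of 4 HET libraries correlated best with its own number. These values showed no pairing by number, but 4 libraries a group are too few to settle whether same-numbered libraries share more. In edgeR with the replicate block, 0 genes were called (912 at an unadjusted p under 0.05), 3 of the 10 genes had an unadjusted p under 0.05, and the Bcl2a1 sum had a log2 fold change of 0.52. Bbc3 and Bak1 rest on 13 to 81 reads a library, and their spread exceeded counting error.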

Other observations

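The lengths behind the deposited TPM values bear on any comparison between family genes. The ratio of count to TPM gives 1 length per gene, and for 95% of 18134 genes this matched the mean genomic span of the gene's transcripts, introns included, within 0.1 on the log2 scale, while the merged exon length matched for 4.7%. Genes with long introns are therefore low in that table. Mcl1, a compact gene, was 43.5 times Bcl2 in the authors' mean TPM and 4.15 times Bcl2 in CPM per kilobase of exon. Against Bcl2a1d, Mcl1 was 7.88 times higher in the authors' mean TPM and at 0.731 times its level per kilobase of exon. The fits on counts that compare HET and WT use no gene length. In TPM a gene's own length cancels between HET and WT, but the lengths of all genes enter each library's scaling. Fold changes from TPM can therefore shift with those lengths.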
